A study of Mus musculus with 12 samples.

Results

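The 5 genes described here make, supply and recycle glutathione: Gclc and Gclm, Gss, Gsr and Slc7a11. They were chosen by name from the 12393 genes that the array's annotation names singly, and every probe set that the platform annotation assigns to one of them was taken. That gave 7 probe sets among the 22690 of the array: a pair for Gclc, a pair for Gsr and a single one each for Gclm, Gss and Slc7a11. Mouse lung RNA was read on 12 arrays of the Affymetrix Murine Genome 430A type, which measure transcripts through sets of short probes. The knockout HVT group holds 3 arrays of Nrf2-/- CD-1/ICR mice on a ventilator for 2 h at a high tidal volume of 30 ml/kg, and the knockout SpV group 3 arrays of Nrf2-/- mice that breathed on their own for 2 h. The wild-type HVT and SpV groups hold 3 arrays each of Nrf2+/+ mice of the same stock treated in the same ways. By the labels, 11 arrays hold left lobe and array 1 of the wild-type SpV group holds whole lung, and they give neither the age of the mice nor which part of the Nrf2 gene is missing. Nothing says that the arrays of a group came from separate animals, so p-values cover only how these samples vary, and that variation could be technical.

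Glutathione is the main small thiol of animal cells and protects them from oxidants. Glutamate-cysteine ligase makes the first bond between glutamate and cysteine, which limits the rate of synthesis, and it consists of the catalytic subunit GCLC and the modifier subunit GCLM. Glutathione synthetase, from Gss, adds glycine, glutathione reductase, from Gsr, returns the oxidised form to the reduced one with NADPH, and xCT, from Slc7a11, imports cystine in exchange for glutamate. NRF2, the transcription factor encoded by Nfe2l2, binds antioxidant response elements with a small MAF partner, and both ligase subunits and xCT are known as its targets.

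Signals below are linear probe set intensities after every array was scaled to a trimmed mean of 500 and quantile normalized. Differences are on the log2 scale of signal plus a pseudocount of 16, which understates the change of weak probe sets, and carry a standard error from limma. A difference was called at a Benjamini-Hochberg adjusted p under 0.05 over the 15855 probe sets that reached a scaled signal of 100 on at least 3 arrays. Of the 7 probe sets, 6 passed that filter, with all 12 arrays at 100 or more, and Slc7a11 did not, with 0 arrays. Levels of different probe sets are not compared, because each has its own brightness.

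Nfe2l2 separated the genotypes on every array, at 36.2 to 61.2 on the 6 knockout arrays, against 2550 to 3279 in wild-type HVT and 2143 to 3294 in wild-type SpV lungs. The lung markers are present, with Sftpc, the surfactant protein of alveolar type II cells, at 12184 or more and Scgb1a1 of club cells at 22170 or more on every array. Of the liver genes, Apoa1 reached at most 39, while Alb lay at 87 to 238 and passed the filter. Knockout SpV array 1 stands apart, with a trimmed mean signal of 73.9 before scaling against 182 to 469 on the other arrays. Its 3' to 5' ratio of beta-actin probe sets, which grows as RNA breaks down, was 8.76 against 1.39 to 3.10, and its correlation with other arrays averaged 0.873, where theirs averaged 0.925 to 0.942. Results that use it are also given without it where it changes a call or the value moves by much. The knockout HVT arrays also had higher actin ratios than the wild-type HVT arrays (2.21 to 3.10 against 1.53 to 1.99) and lower trimmed mean signals (182 to 247 against 279 to 439).

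**Figure D1:**
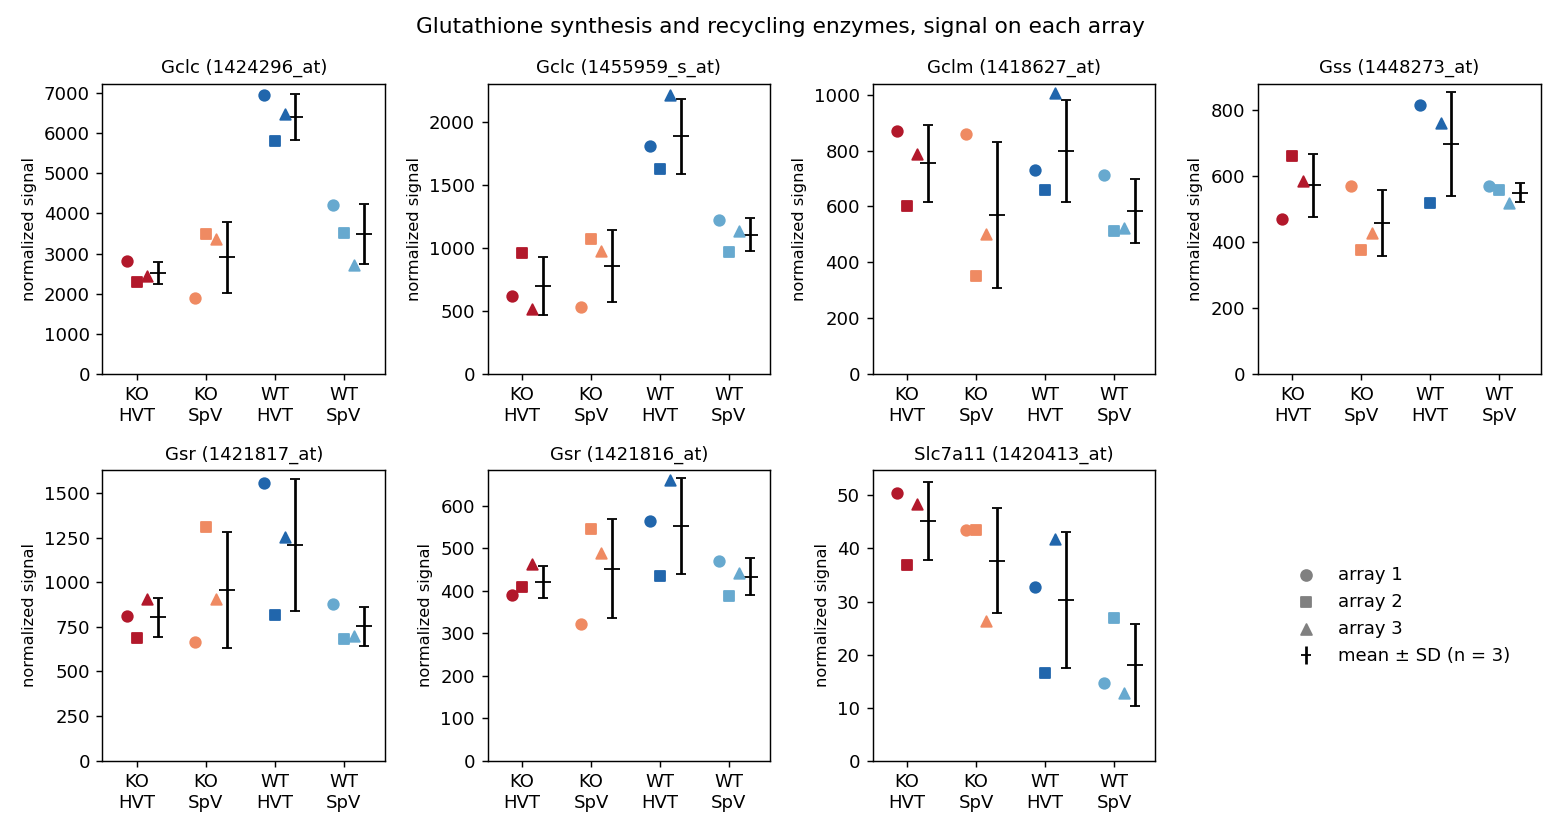
Normalized probe set signal (linear axis from 0, arbitrary units) on each of the 12 arrays, with KO for knockout and WT for wild type; circles, squares and triangles are arrays 1, 2 and 3 of a group, and the black bar beside them is the mean ± SD of 3 arrays. Both Gclc probe sets are highest on the 3 wild-type HVT arrays, from 5808 and from 1629 upwards, above all 9 other arrays.

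Gclc, the catalytic subunit that carries the active site of the ligase, was the only member called between the genotypes. In ventilated lungs its signal was lower without Nrf2, by 2.54-fold at 1 probe set and 2.73-fold at the other. The gene lies on chromosome 9 from 77754535 to 77794489 in GRCm38.p6. At probe set 1424296_at the signal was 2825, 2284 and 2431 on the knockout HVT arrays, against 6949, 5808 and 6469 on the wild-type HVT arrays. It was 1890, 3484 and 3354 on the knockout SpV arrays, against 4204, 3522 and 2724 on the wild-type SpV arrays. The knockout and wild-type HVT groups lie far apart, while the SpV groups of the genotypes overlap.

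Group means of Gclc were 2513 ± 280 in knockout HVT and 2910 ± 885 in knockout SpV lungs, and 6409 ± 573 in wild-type HVT and 3483 ± 741 in wild-type SpV lungs (SD, n = 3 each). In rising order the groups are knockout HVT, knockout SpV, wild-type SpV and wild-type HVT. Only the last is clear of its neighbour, since the arrays of the other groups overlap with those next to them. The second Gclc probe set, 1455959_s_at, gave 620, 959 and 517 in the ventilated knockout, against 1810, 1629 and 2218 in the ventilated wild type. It gave 535, 1069 and 976 in knockout SpV lungs, against 1221, 969 and 1131 in wild-type SpV lungs. Its order of groups is the same as that of the first, and probe sets ending in s_at can also bind related transcripts.

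In ventilated lungs Gclc fell in the knockout by 1.35 ± 0.23 on the log2 scale at 1424296_at (limma adjusted p = 0.0195, rank 46 of 15855) and by 1.45 ± 0.27 at 1455959_s_at (limma adjusted p = 0.0355). No other member was called, and 0.681% of all probe sets were called in this comparison, and 0.385% of all were called lower. Groups that do not overlap were found for 24.6% of all probe sets here, 13.1% with the knockout below. Averaged over both kinds of breathing, where 3.25% of all probe sets were called, Gclc fell by 0.82 ± 0.16 (limma adjusted p = 0.0179) and 0.93 ± 0.19 (limma adjusted p = 0.024). Exact permutation within each kind of breathing, two-sided over 400 relabellings, gave p = 0.025 and p = 0.015, adjusted over the 7 probe sets to 0.0583 for both.

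Leaving out 1 array changed whether these values were called, while their sign stayed the same. With 1 of the 12 arrays left out in turn, the value in ventilated lungs stayed between -1.43 and -1.28 at 1424296_at and was called in 7 of 12 fits. It lost the call without knockout HVT array 2 (adjusted p = 0.0953) or 3 (adjusted p = 0.0926), or without wild-type HVT array 1 (adjusted p = 0.117), 2 (adjusted p = 0.0625) or 3 (adjusted p = 0.0665). With any HVT array left out, the standard error there was 0.26 or 0.27, against 0.23 with all arrays. At 1455959_s_at the value lay between -1.70 and -1.26 and was called in 4 of 12 fits. Those were the fits without knockout HVT array 2 or without any 1 of the 3 knockout SpV arrays. Without knockout SpV array 1 the values were -1.35 ± 0.15 (limma adjusted p = 0.000722) and -1.45 ± 0.21 (limma adjusted p = 0.00276). That fit called 4.6% of all probe sets. The average over breathing was called in 11 of 12 fits at the first, with adjusted p = 0.0504 without knockout HVT array 3, and in 7 of 12 at the second. With the log2 actin ratio as a covariate the first probe set had -1.15 ± 0.18 (adjusted p = 0.00887) and the second -1.18 ± 0.20 (adjusted p = 0.0143). On the deposited values without scaling the first had -2.19 ± 0.68 (adjusted p = 0.259), where the median of all probe sets is itself shifted by -0.77.

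Markers of several cell types differ between the same groups. The summed signal of 7 endothelial markers was 6652 to 8360 on the knockout HVT arrays, against 11276 to 17743 on the wild-type HVT arrays, with 1 of 8 probe sets above 0, a median log2 difference of -1.20 and 0 called. The summed signal of 5 alveolar type I markers was 9733 to 14832 on the knockout HVT arrays, against 20543 to 29788 on the wild-type HVT arrays, with a median of -0.84 and 0 of 6 above 0. Heart muscle markers summed to 31391 to 39126 on the knockout HVT arrays, against 14169 to 23893 on the wild-type HVT arrays. Of their 7 probe sets, 7 lay above 0 and 4 were called higher. In this comparison 50.2% of all probe sets lay above 0 and 0.296% were called higher. Macrophage markers summed to 1208 to 1736, against 2778 to 3058, with 1 of 4 probe sets above 0 and 0 called. Averaged over breathing, 4 of 8 endothelial and 2 of 6 type I probe sets were called lower, and 5 of 7 of heart muscle higher. Over all probe sets 1.84% were called lower and 1.41% higher there. No marker of these lists was at 0 in any group. In whole tissue, fewer cells of a type and less RNA per cell cannot be told apart, and the part of these shifts in the Gclc difference was not tested.

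In resting lungs the genotypes did not differ at Gclc beyond their spread. The knockout minus wild-type difference in SpV lungs was -0.29 ± 0.23 at 1424296_at (limma adjusted p = 0.63), with a 95% interval from -0.78 to 0.20, and -0.41 ± 0.27 at 1455959_s_at (limma adjusted p = 0.56). None of the 6 measured probe sets was called at rest, against 0.505% of all probe sets. Without knockout SpV array 1, which had the lowest signal of the 12 at the first probe set, the values were 0.00 and -0.11.

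**Figure D2:**
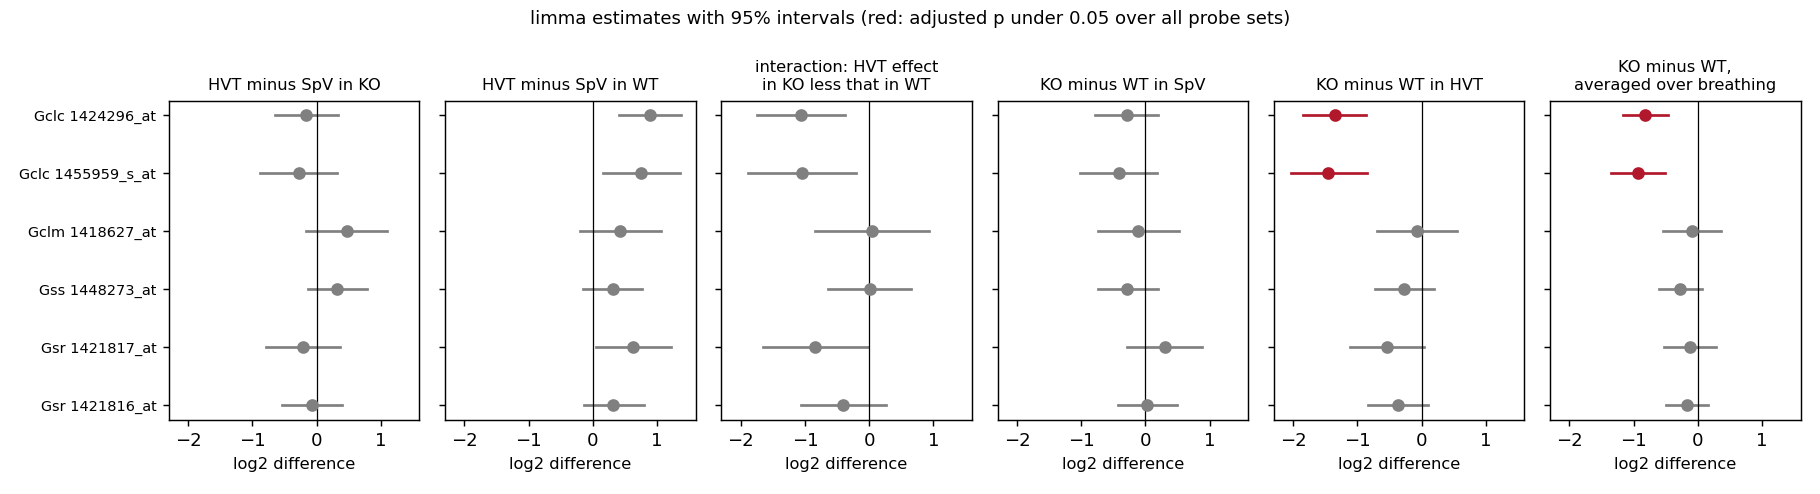
Log2 differences (x axis) with 95% intervals from limma for the 6 probe sets that passed the filter (y axis), in 6 comparisons, with red for an adjusted p under 0.05 over all 15855 probe sets. The Gclc probe sets are red in the comparison of genotypes in HVT lungs, at -1.35 and -1.45, and in its average over breathing, at -0.82 and -0.93.

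At Gclc the difference made by ventilation was below 0 in knockout and above 0 in wild-type lungs, and it was called in neither. In knockout lungs the HVT minus SpV difference was -0.16 ± 0.23 at 1424296_at and -0.28 ± 0.27 at 1455959_s_at, with overlapping groups. Without knockout SpV array 1 these were -0.45 ± 0.17 (limma adjusted p = 0.128) and -0.59 ± 0.23 (limma adjusted p = 0.138). With all arrays limma called 0 of 15855 probe sets for ventilation in the knockout, with 1767 at an unadjusted p under 0.05. Without knockout SpV array 1 it called 999, or 6.3%, but neither Gclc probe set. In wild-type lungs the HVT minus SpV difference was 0.89 ± 0.23, a 1.86-fold higher signal, and 0.75 ± 0.27. All 3 wild-type HVT arrays lay above all 3 wild-type SpV arrays at both, an order that 8.42% of all probe sets showed in that direction. Neither passed over all probe sets (limma adjusted p = 0.289 and 0.511), in a comparison in which 4 probe sets or 0.0252% were called. The wild-type HVT arrays enter both this comparison and the one between genotypes in ventilated lungs, so the values are not independent.

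The difference between those responses, knockout less wild type, was -1.06 ± 0.32 at the first probe set (unadjusted p = 0.00585, limma adjusted p = 0.984) and -1.04 ± 0.39 at the second (unadjusted p = 0.0196, limma adjusted p = 0.984). In this interaction limma called 0 probe sets, with 796 or 5.02% at an unadjusted p under 0.05. Knockout SpV array 1 decides the call. Without it the interaction was -1.34 ± 0.23 at 1424296_at (limma adjusted p = 0.0293) and the wild-type response of 0.89 ± 0.15 was called too (limma adjusted p = 0.0345), with 0.631% and 0.309% of all probe sets called in those fits. The second probe set was called in neither (-1.34 ± 0.31, limma adjusted p = 0.0792, and 0.75 ± 0.21, limma adjusted p = 0.154). Without wild-type SpV array 1, the whole-lung sample, the wild-type response at the first probe set was 1.04 ± 0.25 (limma adjusted p = 0.397).

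**Figure D3:**
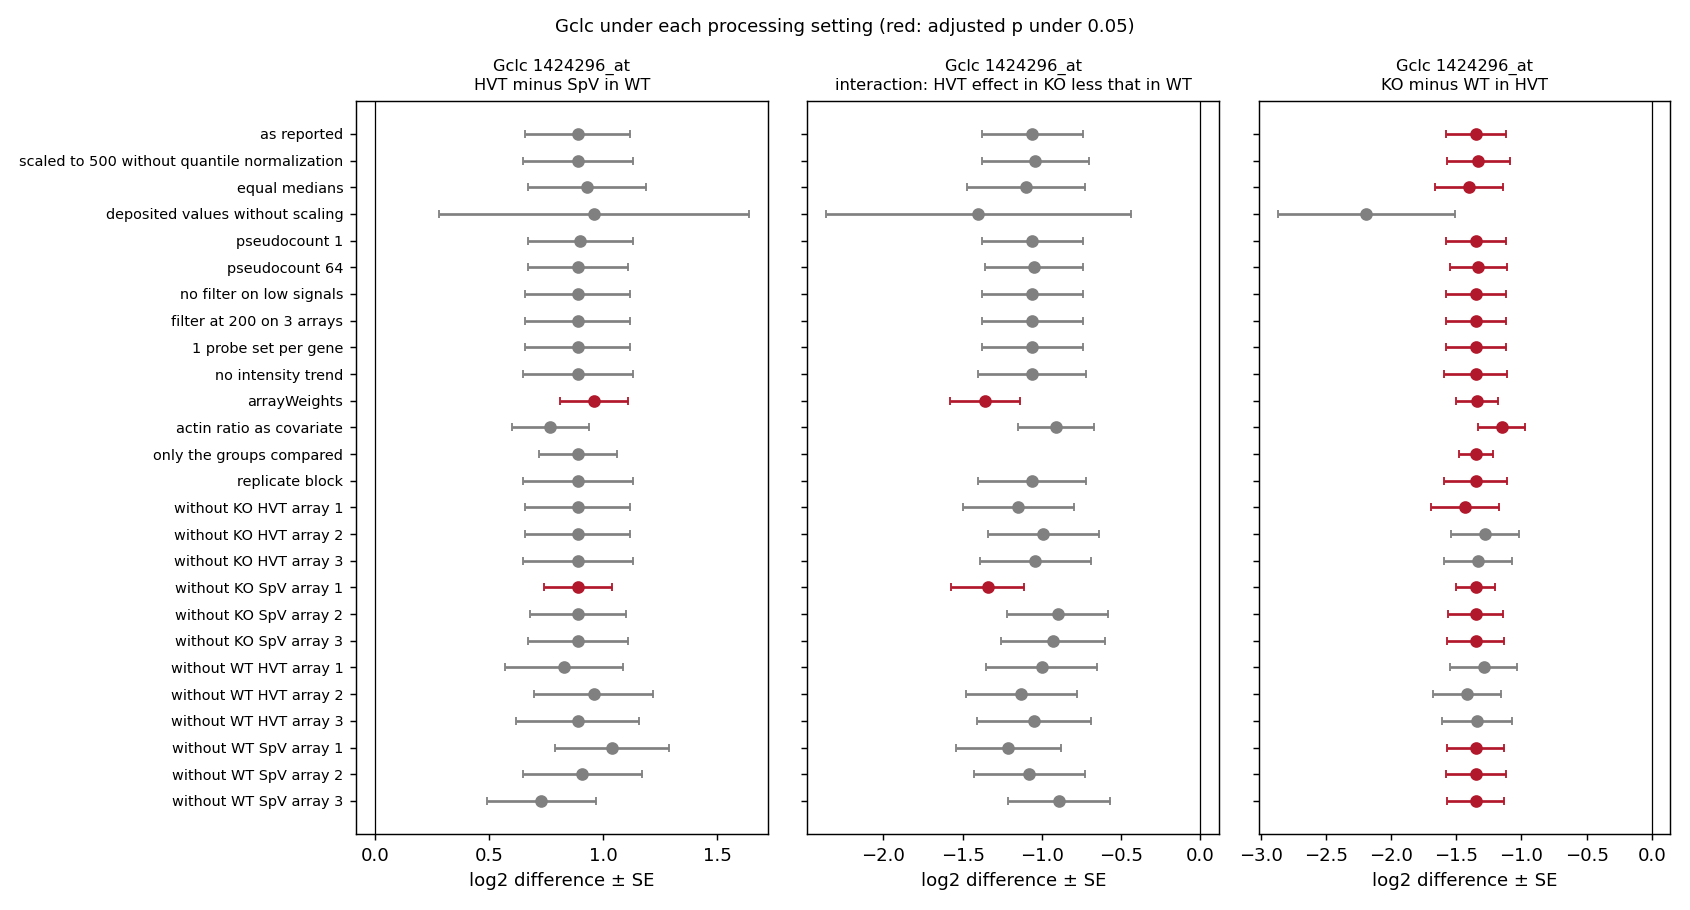
Log2 differences ± SE (x axis) of Gclc probe set 1424296_at under each processing setting (y axis), for ventilation in wild type, the interaction and the genotype difference in ventilated lungs, with red for an adjusted p under 0.05. Every estimate keeps its sign, and the first 2 panels turn red only with array weights or without knockout SpV array 1.

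Gclm, the modifier subunit that raises the affinity of the ligase for glutamate, did not separate the genotypes. It lies on chromosome 3 from 122245487 to 122267215. Its signal was 871, 602 and 789 in ventilated knockout lungs, against 730, 658 and 1005 in wild-type HVT lungs. In SpV lungs it was 858, 350 and 502 in the knockout, against 714, 513 and 523 in the wild type. The genotypes overlap under both kinds of breathing, at -0.07 ± 0.29 in HVT lungs (95% interval -0.70 to 0.56, limma adjusted p = 0.947) and -0.11 ± 0.29 in SpV lungs (limma adjusted p = 0.911).

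With ventilation Gclm had much the same value in each genotype, 0.47 ± 0.29 in knockout and 0.43 ± 0.29 in wild-type lungs, with an interaction of 0.04 ± 0.41 and a 95% interval from -0.85 to 0.93. Averaged over genotype the difference was 0.45 ± 0.21 (limma adjusted p = 0.37, exact permutation p = 0.08). Its 858 on knockout SpV array 1 is the highest of that group. Without that array the average was 0.62 ± 0.16 and was called (limma adjusted p = 0.042), in a fit that called 6.03% of all probe sets, against 0.126% with all arrays, and the knockout difference was 0.81 ± 0.24 (limma adjusted p = 0.0639).

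The stretch of the Gclm promoter that holds a match to TGACNNNGC, the core letters of the antioxidant response element, is shown because Gclm is a known NRF2 target whose signal did not follow the genotype. It is read 5′ to 3′ from RefSeq on the plus strand of GRCm38.p6 at chr3:122245377-122245476, bases -180 to -81 from the start at 122245557 that the promoter table uses, which lies inside the gene's span, and the capitals mark the match, which lies on the opposite strand.
Gclm: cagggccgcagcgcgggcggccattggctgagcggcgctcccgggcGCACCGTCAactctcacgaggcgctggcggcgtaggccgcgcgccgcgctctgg
The motif was searched on both strands of the window from 250 bases before to 50 after the start, and 12.4% of all 32851 promoter windows of that table hold it. Of the 3 members with a window there, Gclm holds it, and its letters are not in the windows of Gss and Slc7a11. In the list of 13 reference NRF2 targets used below, 6 of the 11 genes with a window hold it in at least 1 window. Some of these genes have several windows, such as Txnrd1 with 3, so this count is not a share of windows like the 12.4%. G6pdx, which is among the 6, has no probe set on the array. A match is a description of letters and not a binding site.

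Gss, the glutathione synthetase gene on chromosome 2 from 155563181 to 155592810, also showed no call. Its signal was 470, 658 and 585 in ventilated knockout lungs, against 813, 516 and 758 in wild-type HVT lungs, and 569, 374 and 426 in knockout SpV lungs, against 570, 558 and 516 in wild-type SpV lungs. The groups overlap in each comparison, and the wild-type SpV arrays are the tightest of the 4 groups. The knockout minus wild-type difference was -0.27 ± 0.21 in HVT lungs and -0.28 ± 0.21 in SpV lungs, and -0.27 ± 0.15 averaged over breathing (limma adjusted p = 0.346, exact permutation p = 0.09). Ventilation gave 0.32 ± 0.21 in knockout and 0.31 ± 0.21 in wild-type lungs, and 0.32 ± 0.15 averaged over genotype (limma adjusted p = 0.393, exact permutation p = 0.05, adjusted over the 7 probe sets to 0.21). The interaction was 0.01 ± 0.30, with a 95% interval from -0.64 to 0.66. Without knockout SpV array 1, Gss had -0.44 ± 0.21 between genotypes in SpV lungs (limma adjusted p = 0.314) and 0.49 ± 0.21 with ventilation in the knockout (limma adjusted p = 0.166).

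Gsr, the glutathione reductase gene on chromosome 8 from 33653238 to 33698162, has a brighter and a dimmer probe set. At 1421817_at the signal was 812, 688 and 909 in ventilated knockout lungs, against 1556, 816 and 1254 in wild-type HVT lungs. In SpV lungs it was 665, 1309 and 904 in the knockout, against 878, 682 and 700 in the wild type. The groups overlap in each comparison, and the spread is widest in the wild-type HVT and knockout SpV groups. The dimmer 1421816_at gave 390 to 463 in knockout HVT, 322 to 546 in knockout SpV, 435 to 661 in wild-type HVT and 387 to 471 in wild-type SpV lungs.

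Neither Gsr probe set was called in any comparison. In ventilated lungs the genotype difference was -0.54 ± 0.27 at 1421817_at (unadjusted p = 0.0652, limma adjusted p = 0.437) and -0.37 ± 0.21 at 1421816_at (limma adjusted p = 0.505). In resting lungs it was 0.30 ± 0.27 and 0.03 ± 0.21, values that were -0.18 and -0.40 on the deposited signals, where the median of all probe sets is shifted by -0.46. Without knockout SpV array 1 they were 0.53 ± 0.25 and 0.25 ± 0.19, and ventilation in the knockout was -0.44 ± 0.25 and -0.29 ± 0.19. Ventilation gave -0.21 ± 0.27 in the knockout and 0.63 ± 0.27 in the wild type at 1421817_at (in the wild type, unadjusted p = 0.0354, limma adjusted p = 0.62). The interaction was -0.84 ± 0.38 there (unadjusted p = 0.0459, limma adjusted p = 0.984), and -1.07 ± 0.34 without knockout SpV array 1 (limma adjusted p = 0.176). At 1421816_at it was -0.40 ± 0.30.

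Slc7a11, the gene of the cystine importer on chromosome 3 from 50364936 to 50499087, was too dim to test with the others. Its probe set gave 50.5, 36.8 and 48.4 in ventilated knockout lungs, against 32.8, 16.5 and 41.7 in wild-type HVT lungs, and 43.4, 43.4 and 26.3 in knockout SpV lungs, against 14.6, 26.8 and 12.7 in wild-type SpV lungs. The knockout values are mostly above the wild-type ones, and the genotypes overlap under both kinds of breathing. Detection calls were not used here, so whether the gene was detected is not known. In a fit of all 22626 probe sets without the filter, the genotype difference averaged over breathing was 0.55 ± 0.20 (limma adjusted p = 0.199, exact permutation p = 0.02, adjusted over the 7 probe sets to 0.0583). On the deposited values it was 0.15, and the deposited signals overlap between the genotypes, from 8.2 to 32.5 on knockout arrays and from 10.1 to 33.1 on wild-type arrays. The 4 arrays with the lowest trimmed means, and so the largest scaling, are all knockout arrays, and the part of this in the difference was not tested.

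Slc7a11 is also a known target of ATF4, the factor of the amino acid response, and its promoter is shown because it carries letters of that factor's element. The stretch is from RefSeq on the minus strand of GRCm38.p6 at chr3:50443614-50443713, bases -100 to -1 from the start at 50443613 in that table. That start lies inside the gene's span, which begins at 50499087 on this strand. The stretch is read 5′ to 3′, with matches to TGATGNAA on either strand in capitals.
Slc7a11: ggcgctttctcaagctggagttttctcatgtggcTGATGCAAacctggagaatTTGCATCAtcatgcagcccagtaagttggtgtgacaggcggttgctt
The letters TGATGNAA occur in 3.97% of all promoter windows, and neither Gclm nor Gss holds them. Atf4 itself had a knockout minus wild-type difference of 0.45 ± 0.14 in SpV lungs (limma adjusted p = 0.21), and 0.35 at the other probe set that passed the filter. In HVT lungs these were 0.05 and 0.10, and none of the 4 values was called. A link between Atf4 and the Slc7a11 signal was not tested.

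The members differed in how closely they followed each other. Across the 12 arrays the log2 signals of the Gclc probe sets correlated at r = 0.891 with each other, and the Gsr probe sets at r = 0.862. Gclc 1424296_at correlated with the Gsr probe sets at r = 0.693 and 0.727, and with Gclm at 0.121 and Gss at 0.375. After the group means were removed, its r was 0.721 and 0.67 with Gsr, and -0.358 with Gclm and -0.356 with Gss. These are descriptions over arrays that share 4 groups, differences in RNA quality and a common normalization.

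Tests within arrays compared the members directly. The signal of 1 gene less that of another was averaged over the genotype contrast for the 6 pairs of Gclc, Gclm, Gss and Gsr, with exact permutation p-values adjusted over the pairs. The knockout difference of Gclc was 0.70 lower than that of Gsr on the log2 scale (-0.70, exact permutation p = 0.005, the smallest the design allows, adjusted to 0.03). Without knockout SpV array 1 this was -0.67 (exact permutation p = 0.01, adjusted to 0.06). Against Gclm it was -0.73 (exact permutation p = 0.07, adjusted to 0.21) and against Gss -0.55 (exact permutation p = 0.125, adjusted to 0.25), so a difference from these was not shown. The 6 pairs for ventilation averaged over genotype had values from -0.09 to 0.24 and adjusted p = 0.875 each.

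The genes whose log2 signal followed a member most closely over the 12 arrays, by Pearson correlation among all single-gene probe sets, differed from member to member. For Gclc they were Txnrd1, the cytosolic thioredoxin reductase and a known NRF2 target (r = 0.939), Timp3, an inhibitor of matrix metalloproteinases (0.931), and the histone acetyltransferase Kat7 (0.925). That Txnrd1 value is from 1421529_a_at, whose knockout minus wild-type difference was -0.66 in SpV and -1.53 in HVT lungs. The other Txnrd1 probe set that passed the filter had -1.10 and -0.44, the reverse order. For Gclm the closest genes were Larp4b (0.936), the carboxylesterase Ces1d (0.933) and Wee1, a kinase that holds back mitosis (0.915). For Gss they were Plet1 (0.901), Frat2 (0.90) and the tight junction protein Cldn4 (0.899). For Gsr they were Zfp36, which destabilises cytokine mRNAs (0.93), the growth factor Hbegf (0.888) and Ch25h, a cholesterol hydroxylase (0.879).

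Known NRF2 targets gave a scale for these values. Of 24 probe sets for 12 reference genes, 12 were called lower in knockout HVT lungs and 0 were called higher. Over all probe sets 0.385% were called lower there. Of the 24, 1 lay above 0, and the list median was -1.27 against 0.00 over all probe sets. In SpV lungs 7 were called lower and 0 higher, where 0.265% of all were called lower. There 2 lay above 0, at a median of -0.82 against -0.02. Srxn1, which reactivates oxidised peroxiredoxins, has 4 probe sets and had -2.20 ± 0.21 in HVT lungs at 1426875_s_at (limma adjusted p = 0.000357), and a wild-type ventilation difference of 1.17 ± 0.21 (limma adjusted p = 0.116). Its other probe sets had -2.20, -0.64 and -0.99 in HVT lungs, and those last values were not called (limma adjusted p = 0.539 and 0.391). The glutathione transferase Gstm1, called in HVT lungs at 3 of 4 probe sets, had at 1448330_at -2.15 ± 0.20 in HVT lungs (limma adjusted p = 0.000285) and -1.75 ± 0.20 in SpV lungs (limma adjusted p = 0.00151). The carboxylesterase Ces1g had -3.88 ± 0.41 in HVT and -3.37 ± 0.41 in SpV lungs. Aldehyde oxidase, from Aox1, had -1.93 ± 0.16 in SpV lungs (limma adjusted p = 0.000263). The reference genes were listed with earlier results of these data known, so their direction is no independent evidence. Comparisons with the knockout at HVT and at SpV use different arrays.

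**Figure D4:**
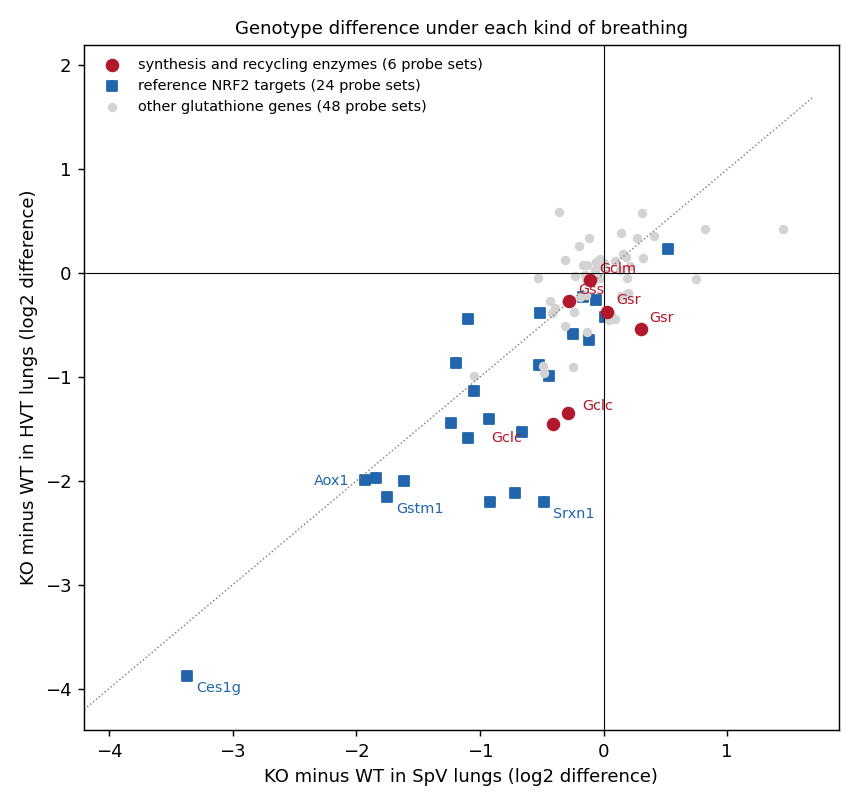
Knockout minus wild-type log2 difference in SpV lungs (x axis) against that in HVT lungs (y axis), a point for each probe set, with the line of equal values dotted. The Gclc probe sets lie at -0.29 and -0.41 on the x axis and at -1.35 and -1.45 on the y axis. Ces1g lies near the dotted line at -3.37 and -3.88. Srxn1 at 1426875_s_at (-0.92 and -2.20) lies below the line, as Gclc does, and Txnrd1 at 1424486_a_at (-1.10 and -0.44) above it. The medians of the reference NRF2 targets were -0.82 and -1.27.

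Among the other genes of glutathione supply, breakdown, export and use, 1 was called. Between the genotypes in SpV lungs 0.505% of all probe sets were called, and 8 of 14 in the list of cysteine supply lay above 0. Of those 14, 0 were called lower and 1 was called higher in the knockout. This was Slc1a4, a neutral amino acid transporter that carries cysteine among other substrates, at 330 ± 20.8 in knockout SpV and 115 ± 45.5 in wild-type SpV lungs (SD, n = 3 each), a difference of 1.45 ± 0.25 at 1423549_at (limma adjusted p = 0.0227). Its other probe sets had 0.75 and 0.04, so they disagree. Slc3a2, the heavy chain that pairs with xCT, had 0.44 ± 0.17 with ventilation in wild-type lungs (limma adjusted p = 0.584).

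Of 11 probe sets for glutathione breakdown, 11 for export and 12 for glutaredoxins and other glutathione-dependent enzymes, 0 were called by limma in any of the 7 comparisons. In each, 1 to 7 of the 34 had an unadjusted p under 0.05 by limma, against 5.02% to 19.8% of all probe sets. The count of 7 and the share of 19.8% are both from the genotype difference averaged over breathing. Chac1, which cleaves glutathione inside the cell and is known as an ATF4 pathway gene, had 1.32 ± 0.41 with ventilation in knockout lungs (limma adjusted p = 0.313) and 1.04 ± 0.41 in wild-type lungs (limma adjusted p = 0.58). Hagh, which hydrolyses S-lactoylglutathione, had -0.90 ± 0.24 in knockout HVT lungs at 1 of 3 probe sets (limma adjusted p = 0.148), while the others had -0.03 and -0.02. The export pump gene Abcc3 had -0.51 ± 0.20 in the same comparison (limma adjusted p = 0.317). The medians of these 3 lists in knockout HVT lungs were 0.08, -0.05 and -0.03, against 0.00 over all probe sets.

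Among the regulators, the small MAF gene Maff had a ventilation difference of 0.51 ± 0.23 in knockout lungs (limma adjusted p = 0.432). In wild-type lungs it rose by 2.44 ± 0.23 (limma adjusted p = 0.00178), the only call of 16 probe sets there, against 0.0252% of all called. The interaction was -1.93 ± 0.32 (limma adjusted p = 0.383). Keap1, which holds NRF2 back, had -0.74 ± 0.31 in the knockout averaged over breathing at 1 probe set (limma adjusted p = 0.207), while its other had -0.01 in SpV and 0.01 in HVT lungs.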

How the data were processed

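Signal intensity per probe set was deposited for 12 arrays and comes from GCOS 1.4, per the submitters' processing notes; the deposited intensity values do not show the scaling to an average of 500 that the design text describes, with trimmed means from 73.9 to 469. Each array was therefore scaled to a mean of 500 (trimmed by 2% at each end), 64 control probe sets were left out and the arrays were quantile normalized. Group means were fitted to log2(signal + 16) with limma 3.58.1 in R 4.3.3 (eBayes with an intensity trend, 8 residual and 4.38 prior degrees of freedom) over every probe set kept, two-sided, with 7 contrasts. The fit was also run on simulated data in which every array had the same spread, which does not cover arrays of unequal quality. The number of arrays limits precision: the median standard error was 0.242 between 2 groups and 0.342 for the interaction, and exact permutation of 3 against 3 arrays cannot go below p = 0.1.

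The platform annotation names 1 gene for 20380 probe sets, several for 691 and none for 1555, and no probe set names a member together with other genes. Members, gene lists and naming rule (every member, up to 4 called genes per list or the 2 with the smallest p, and the 3 most correlated genes per member) were chosen with earlier results of these data known. The tests between pairs of members were added after the values were seen. Alternatives covered normalization, pseudocount, filter, 1 probe set per gene, trend, array weights, the actin ratio, the samples fitted, the replicate number and each array left out. Promoter letters are from RefSeq's GRCm38.p6 annotation.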

Additional observations from a re-analysis of the deposited data

Results flagged for a closer look

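Among 94 probe sets of the members and the pathway lists, 1 had every ventilated array on opposite sides of the resting arrays in the 2 genotypes, an order that 0.366% of all 15855 probe sets showed. Chac2, a relative of Chac1 that cleaves glutathione slowly, gave 166, 236 and 175 in HVT lungs of the knockout, against 105, 140 and 146 in its SpV lungs. In the wild type it gave 105, 129 and 133 in HVT lungs, against 197, 162 and 155 in SpV lungs. The ventilation difference was 0.51 ± 0.21 in knockout (limma adjusted p = 0.407) and -0.44 ± 0.21 in wild-type lungs (limma adjusted p = 0.721). The interaction of 0.95 ± 0.30 did not pass (limma adjusted p = 0.984).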

How the results depend on the processing

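On deposited values without scaling the count of called member probe sets was 0 for the genotype in HVT lungs and for the genotype averaged over breathing, against 2 as reported. With 1 probe set per gene it was 1 for both, since only 1 Gclc probe set remains, and without the intensity trend it was 1 in HVT lungs. Array weights, which gave knockout SpV array 1 a weight of 0.128 against 0.607 or more elsewhere, called 2 in wild-type ventilation, 2 in the interaction (Gclc 1424296_at at -1.36 ± 0.22, adjusted p = 0.016) and 2 for ventilation averaged over genotype. Array weights also called 2.91%, 2.18% and 13.4% of all probe sets in these comparisons. Leaving out 1 array gave 0 to 2 for the genotype in HVT lungs, 0 to 2 averaged over breathing, and 0 to 1 for wild-type ventilation, the interaction and averaged ventilation. Exact permutation under 0.05 was found, among the 6 probe sets that passed the filter, for 2 in the genotype contrast and 0 in the ventilation contrast, and the second count was 2 with equal medians and 0 to 2 with 1 array left out. Directions of uncalled values turned in these cases, and the cause was not tested. With equal medians, the interaction was -0.03 for Gclm and -0.05 for Gss, and with the actin ratio -0.17 and -0.08. On deposited values it was -0.32 and -0.34, the genotype difference in SpV lungs was -0.18 and -0.40 for the Gsr probe sets, and averaged ventilation was -0.03 for Gsr 1421816_at. Array weights gave 0.02 for Gclc 1424296_at between genotypes in SpV lungs. With 1 array left out, Gclm ranged from -0.20 to 0.10 between genotypes in HVT lungs, -0.44 to 0.18 in SpV lungs, -0.26 to 0.06 on average and -0.26 to 0.37 for the interaction, and Gss from -0.19 to 0.18 for the interaction. Ventilation in the knockout ranged from -0.44 to 0.04 for Gsr 1421817_at and -0.29 to 0.07 for Gsr 1421816_at, which ranged from -0.12 to 0.25 between genotypes in SpV lungs. Gclm less Gsr was -0.25 without knockout SpV array 1, against 0.03. The replicate numbers pair nothing in the labels, and residuals of same-numbered arrays correlated at -0.181 to 0.382. Among arrays of other groups, 8 of 12 arrays were closest to one of their own number. Whether a batch follows these numbers was not tested. With the replicate number as a block, Gclc had -1.35 ± 0.24 (adjusted p = 0.0429) and -1.45 ± 0.28 (adjusted p = 0.0487) in HVT lungs. Calls over all probe sets were 105 with the block against 108 there, and 3 against 20 for averaged ventilation. For the genotype averaged over breathing they were 706 against 515.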
